A study of Mus musculus with 6 samples.

Results

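The mRNAs of the proteins that build the cytosolic ribosome were followed in 661W cells kept under light or in the dark. 661W cells are a mouse line, labelled as photosensitive, that goes back to a retinal tumour with cone features and carries a viral T antigen, which binds p53. The genes were chosen by symbol alone: Rpl or Rps followed by a number and at most 1 of the letters a, x, y or l, together with Rpsa and Rplp0 to Rplp2, with pseudogenes (symbols in -ps) left out. The choice gave 80 genes of the 24879 lines in the deposited table, 49 of the large and 31 of the small subunit, all annotated as protein-coding. The Light group (3 libraries) was lit for 24 h by a fluorescent lamp of cold white light, at 2000 ± 100 lux. The Dark group (3 libraries) spent 24 h unlit. Both groups shared the cell line and the serum-containing medium.

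A cytosolic ribosome consists of a small subunit, which reads the mRNA, and a large subunit, which joins amino acids and through whose tunnel the new chain leaves. Each protein is needed in about 1 copy per ribosome, the stalk proteins excepted, and their genes are expressed at high levels in growing cells. Their mRNAs belong to the TOP class, named for a terminal oligopyrimidine tract: they begin with a C followed by a run of C and T (U in the RNA), through which LARP1 and mTOR signalling set their translation and stability.

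The start sequences are shown because that tract is the feature these mRNAs are known to share. RefSeq (GRCm38.p6, the build called mm10) listed a transcription start for 60 of the 80 genes. At 13 of the 60 (21.7%) a listed start was a C followed by at least 4 further bases that were all C or T, read on the strand of the gene, against 2.97% of 26965 other genes in the same table. The 8 below span 20 bases before the start and 20 from it. Capitals mark the unbroken C and T run that opens the transcript.
Rpl15 (chr14:18270967-18271006, minus strand): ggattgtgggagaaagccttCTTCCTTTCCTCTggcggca
Rpl28 (chr7:4792945-4792984, plus strand): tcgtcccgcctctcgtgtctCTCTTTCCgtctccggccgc
Rpl35 (chr2:39005112-39005151, minus strand): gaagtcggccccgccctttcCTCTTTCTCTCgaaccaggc
Rps6 (chr4:86857348-86857387, minus strand): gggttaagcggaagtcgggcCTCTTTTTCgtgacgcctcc
Rps10 (chr17:27635225-27635264, minus strand): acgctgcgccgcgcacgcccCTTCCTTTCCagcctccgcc
Rps18 (chr17:33955646-33955685, minus strand): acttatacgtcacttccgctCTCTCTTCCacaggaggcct
Rps27 (chr3:90213629-90213668, minus strand): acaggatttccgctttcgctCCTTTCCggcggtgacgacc
Rps15a (chr7:118116128-118116167, minus strand): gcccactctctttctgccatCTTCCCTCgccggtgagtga
The tract ran for 13 bases in Rpl15, 11 in Rpl35 and 10 in Rps10. Listed starts can lie upstream or downstream of the one in use, so a listed start without the run says only that these letters do not stand there. A run of 8 C or T within 20 bases on either side of a listed start was found in 29 of the 60 genes (48.3%). Among the other genes 18.3% had it. The comparison of changes below thus depends on where the starts are listed. Of the 13 genes with the run, 9 were higher in Light by the test described below, with a median log2 change of 0.40. Of the other 44 tested genes with a listed start, 31 were higher, with a median of 0.41. Over all tested genes 19.2% were higher.

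Values are the authors' FPKM, fragment counts scaled to transcript length and library size. Their sums per library were 459198 to 471471 in Light and 411186 to 434372 in Dark. The depth behind these values is unknown. A change is Light minus Dark on the log2(FPKM + 1) scale. It was tested with limma in the 11068 genes whose mean reached 1 FPKM, with Benjamini-Hochberg adjusted p-values, and called at an adjusted p under 0.05. No label says that the libraries came from separate cultures, so a p-value here reflects only how these samples spread, and that spread may be technical. In bulk RNA fewer cells of a type and less RNA per cell cannot be told apart. Of 10 cone photoreceptor marker genes, 0 reached a mean of 1 FPKM and 5 were listed at 0 in every library. Of 5 fibroblast markers, 3 reached it, and their list summed to 336 to 364 FPKM in Light and 680 to 787 FPKM in Dark. The 4 macrophage markers summed to 7.94 to 9.94 FPKM in Light and 3.95 to 4.96 FPKM in Dark, with Cd68 as the only one above a mean of 1 FPKM. The 4 Müller glia markers, of which 2 reached a mean of 1 FPKM, summed to 34.6 to 36.3 FPKM in Light and 53.8 to 57.4 FPKM in Dark. The part of these markers in the changes below was not tested.

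Ribosomal protein mRNAs were higher in Light across both subunits. Of the 77 genes tested, 54 rose, 23 were not called and 0 fell by limma, while 19.2% of all tested genes were higher and 16.4% lower. At an unadjusted limma p under 0.05, 1 was lower (Rpl21). The median change was 0.42, a 1.33-fold increase, against -0.01 over all genes tested. The rises were small and alike: those called lay between 0.26 and 0.63, which is 1.2-fold to 1.55-fold, with adjusted p-values of 0.0037 to 0.0468 from limma. In 63 of the 77 all 3 Light values lay above all 3 Dark values, against 28.2% of all tested genes. A change within 0.2 of the median was found in 63 genes.

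**Figure D1:**
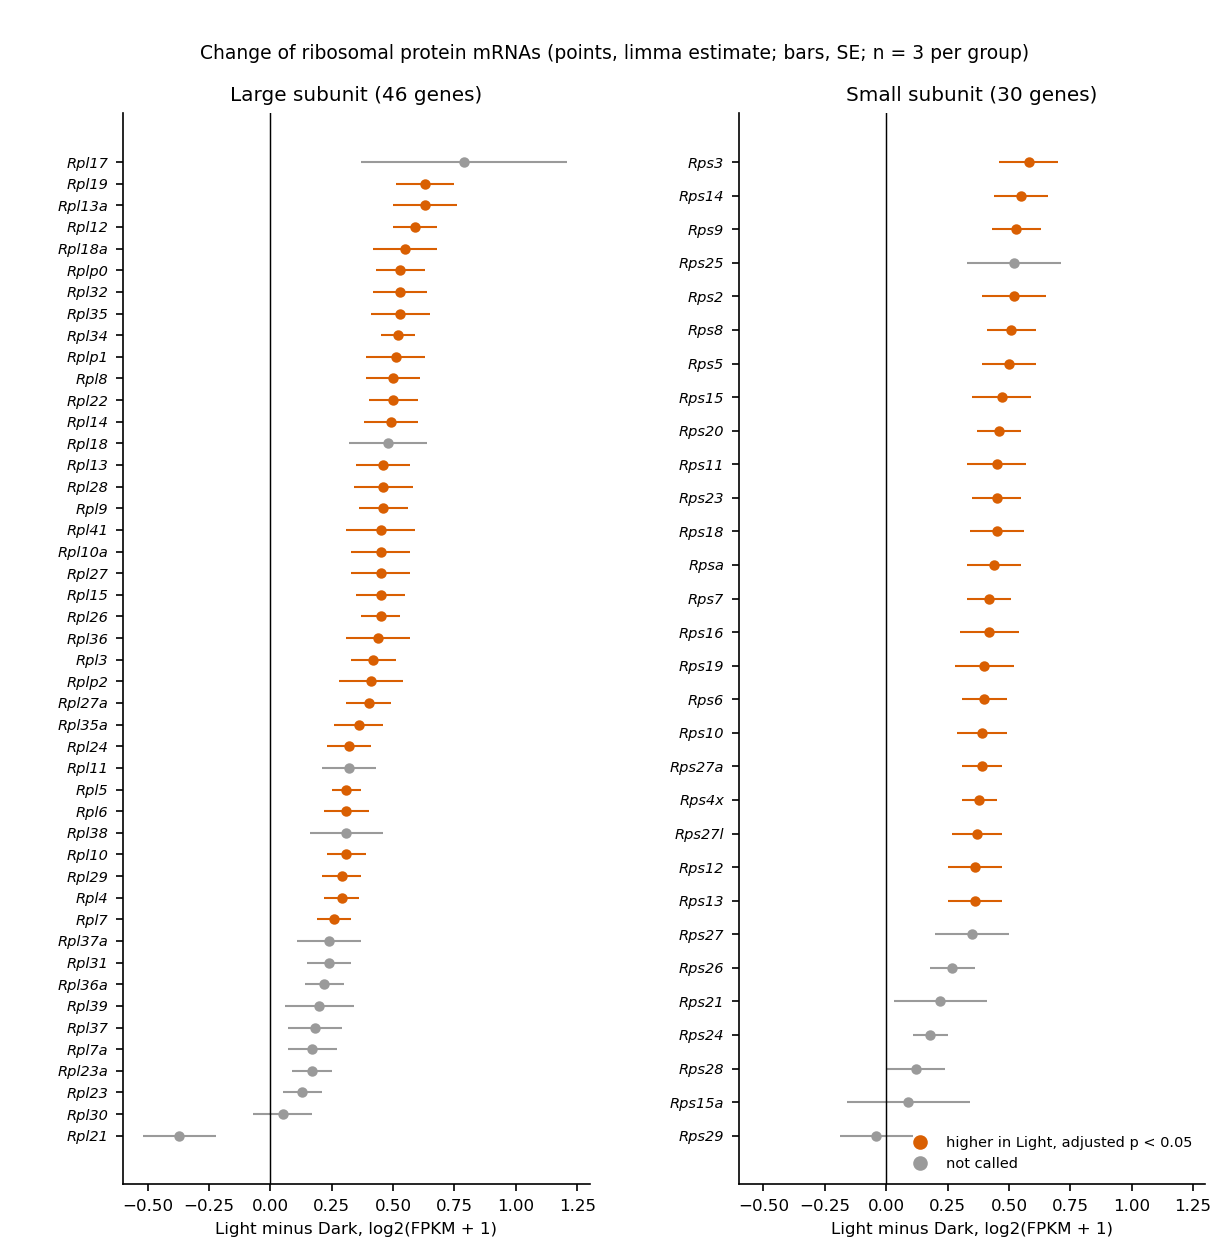
Change of 76 of the 77 tested ribosomal protein mRNAs, Light minus Dark on the log2(FPKM + 1) scale, with the large subunit on the left and the small subunit on the right. Points are limma estimates, bars their SE (n = 3 per group); orange marks the 54 genes called higher, grey those not called. Nearly all points lie between 0 and 0.63, and Rpl21 stands alone on the left at -0.37.

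Together the 80 genes made up a larger part of the summed FPKM in Light. Their share was 12.7%, 13.9% and 13.2% in Light 1 to 3, and 9.97%, 11.7% and 11.3% in Dark 1 to 3. The 3 Light shares thus lay above all Dark shares, at 13.3 ± 0.611% in Light and 11.0 ± 0.888% in Dark (SD, n = 3 each). Their summed FPKM was 1.34 times as high in Light, while that of all lines was 1.1 times as high.

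The balance between the subunits moved little. Large subunit genes summed to 1.75, 1.73 and 1.72 times the FPKM of small subunit genes in Light 1 to 3, and to 1.71 times in each Dark library. Of 46 tested large subunit genes 32 rose, against 19.2% of all tested genes, with a median change of 0.43. Of 31 small subunit genes 22 rose, with a median of 0.40. The difference between these medians was not tested.

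Libraries of the same group also differed. Of the 77 genes, 73 were lowest in Dark 1 and 65 highest in Light 2. Within Dark, the median over the genes of Dark 2 minus Dark 1 was 0.32, with 76 of 77 genes higher in Dark 2, while over all tested genes it was 0.02. Within Light, Light 2 minus Light 1 had a median of 0.17 and Light 2 minus Light 3 one of 0.09. The nearest pair across the groups, Light 1 minus Dark 2, had a median of 0.19, with 73 of 77 genes higher in Light 1. Dark 2 and Dark 1 thus differed by most of the change between groups. Without Dark 1 and Light 2 the median change was 0.28, with 16 genes higher, and without Dark 1 alone it was 0.33, with 45 higher.

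**Figure D2:**
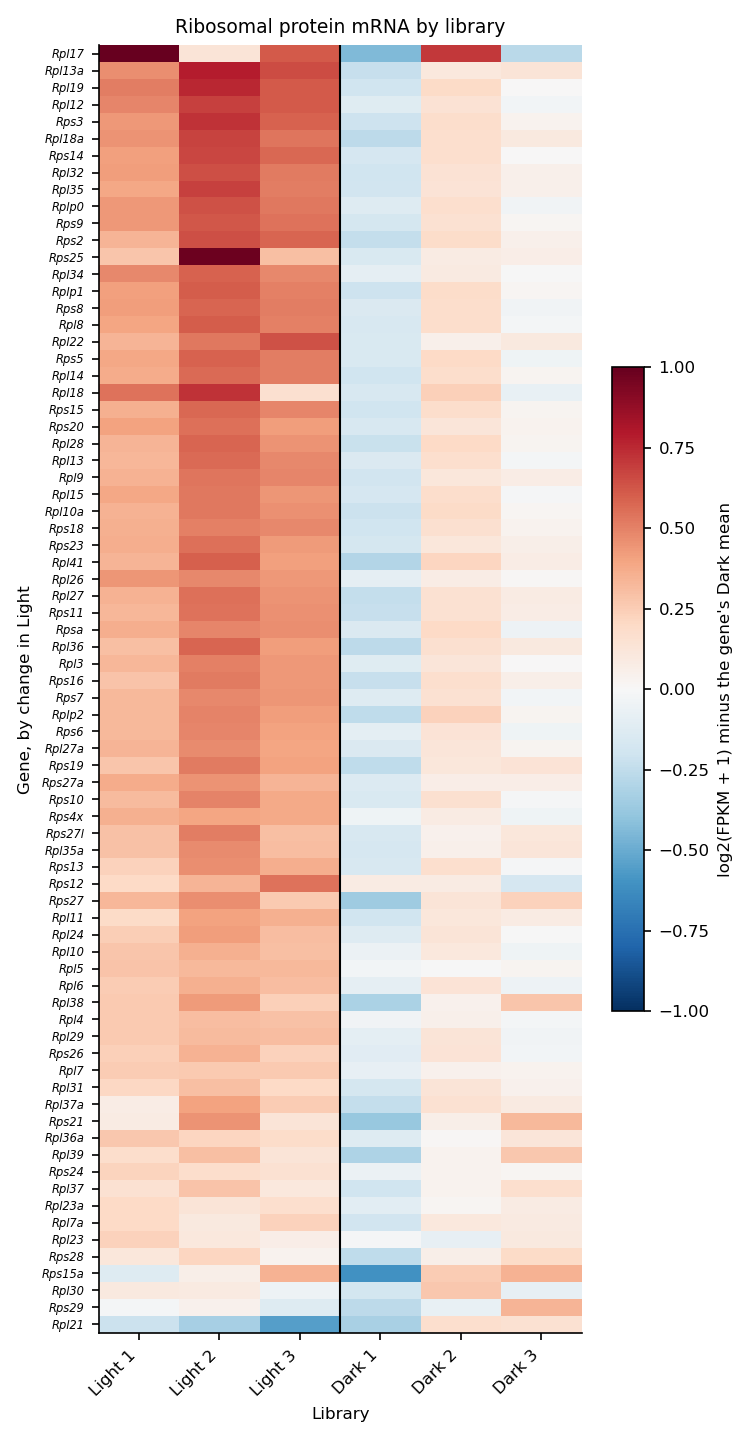
Each row is a gene, for 76 of the 77 tested, ordered by its change, and each column a library, the 3 Light libraries left of the black line. Colour gives log2(FPKM + 1) minus the mean of that gene in Dark, from blue (lower) to red (higher), cut at -1 and 1. Light 2 is the reddest column and Dark 1 the bluest.

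The stalk, which recruits the GTPases that drive translation, is built of Rplp0, Rplp1 and Rplp2, and all 3 rose. Rplp0, its base, stood at 2384, 2731 and 2536 FPKM in Light 1 to 3, against 1612, 1975 and 1714 FPKM in Dark 1 to 3. Rplp1 stood at 2176, 2499 and 2320 FPKM in Light and 1421, 1864 and 1663 FPKM in Dark. For both the groups did not overlap, and the changes were 0.53 ± 0.10 for Rplp0 (SE; limma adjusted p = 0.0111) and 0.51 ± 0.12 for Rplp1 (0.0184). Rplp2, the partner of Rplp1, rose by 0.41 (limma adjusted p = 0.0418), to 545 ± 31.6 FPKM in Light, against 413 ± 68.9 FPKM in Dark (SD, n = 3 each). Rpl12, which sits at the foot of the stalk, stood at 761, 871 and 832 FPKM in Light and 500.1, 599 and 534 FPKM in Dark. Its lowest Light value exceeded its highest Dark value by more than the range within either group, and its change was 0.59 ± 0.09 (limma adjusted p = 0.00555).

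The exit of the nascent chain tunnel is ringed by proteins that chaperones and targeting factors dock on. Of 7 such genes 3 rose (42.9%), namely Rpl19, Rpl26 and Rpl35, against 19.2% of all tested genes. All 7 had a change above 0, with a median of 0.45, so they differed in their calls but not in direction. Rpl19 stood at 2057, 2437 and 2212 FPKM in Light and 1261, 1651 and 1449 FPKM in Dark. That was the second largest change of all called members, at 0.63 ± 0.12 (limma adjusted p = 0.0104). Rpl26 held unusually even values, at 1471, 1514 and 1463 FPKM in Light and 1021, 1142 and 1092 FPKM in Dark, a change of 0.45 ± 0.08 (0.00695). Rpl35 rose by 0.53, and Rpl31, Rpl39, Rpl23a and Rpl17 were not called, at 0.24, 0.20, 0.17 and 0.79. Rpl23a, the docking site of the signal recognition particle, stood at 1144, 1086 and 1120 FPKM in Light and 924, 1010 and 1054 FPKM in Dark. Its groups did not overlap, but the gap was narrow (limma adjusted p = 0.133).

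On the small subunit, Rps3 and Rps2 guard the channel through which mRNA enters. Rps3 stood at 484, 592 and 542 FPKM in Light and 310, 405 and 367 FPKM in Dark, the largest rise of a small subunit gene at 0.58 ± 0.12 (limma adjusted p = 0.0128). Rps2 rose by 0.52 (0.0243). On the side where mRNA leaves, Rps14 and Rpsa rose by 0.55 and 0.44, while Rps26 and Rps28 were not called, at 0.27 (limma adjusted p = 0.0503) and 0.12 (0.442). Rps14, whose loss causes the anaemia of the 5q- syndrome in humans, stood at 717, 856 and 803 FPKM in Light and 481, 605 and 540 FPKM in Dark. Rps28 overlapped between groups, at 435, 468 and 413 FPKM in Light and 338, 420 and 460.3 FPKM in Dark.

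Members with known roles in signalling were mixed in the same range. Rps6, the substrate of the S6 kinases, rose by 0.40 (limma adjusted p = 0.0173), to 1137 ± 64.7 FPKM in Light, against 860.1 ± 75.7 FPKM in Dark. Rpl5 and Rpl11 form with 5S ribosomal RNA the particle that binds MDM2 and so stabilises p53 when ribosome assembly fails. Rpl5 was very even within groups, at 371, 383 and 383 FPKM in Light and 299, 305 and 312 FPKM in Dark, a change of 0.31 ± 0.06 (limma adjusted p = 0.0116). Rpl11 had a like change of 0.32 with a wider spread and was not called (limma adjusted p = 0.0562). Of the other MDM2-binding members, Rps7 rose by 0.42 and Rpl23 was not called, at 0.13. Rps27a, made as a fusion with ubiquitin, rose by 0.39, and Rps19, the gene most often mutated in human Diamond-Blackfan anaemia, by 0.40. Rpl13a, which in human monocytes also silences inflammatory mRNAs, showed the largest change of the called genes, at 0.63 ± 0.13 (limma adjusted p = 0.0123). It stood at 1255, 1563 and 1426 FPKM in Light and 771, 978 and 992 FPKM in Dark.

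The 8 most abundant members all rose, at levels above 1000 FPKM in every library but 1 (Rps15 in Dark 1, at 988 FPKM). In order of level they were Rpl8, which lies at the peptidyl transferase centre, Rplp0, Rplp1, Rpl19, Rpl13, Rps2, Rpl41 and Rps15. Rpl8 stood at 2533, 2928 and 2722 FPKM in Light and 1725, 2171 and 1900 FPKM in Dark, a change of 0.50 ± 0.11 (limma adjusted p = 0.0157). Rpl13, Rpl41 and Rps15 rose by 0.46, 0.45 and 0.47. Rpl41, a very short basic peptide, had the largest adjusted p of the called genes (limma, 0.0468). Across the 77 genes mean FPKM ran from 59.6 to 2330, with a median of 542, and 13 genes exceeded 1000. Across genes the change went with the level, with a Spearman rho of 0.39 and a Pearson r of 0.46 against log2 mean FPKM (n = 77 genes of the same 6 libraries, not independent replicates).

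**Figure D3:**
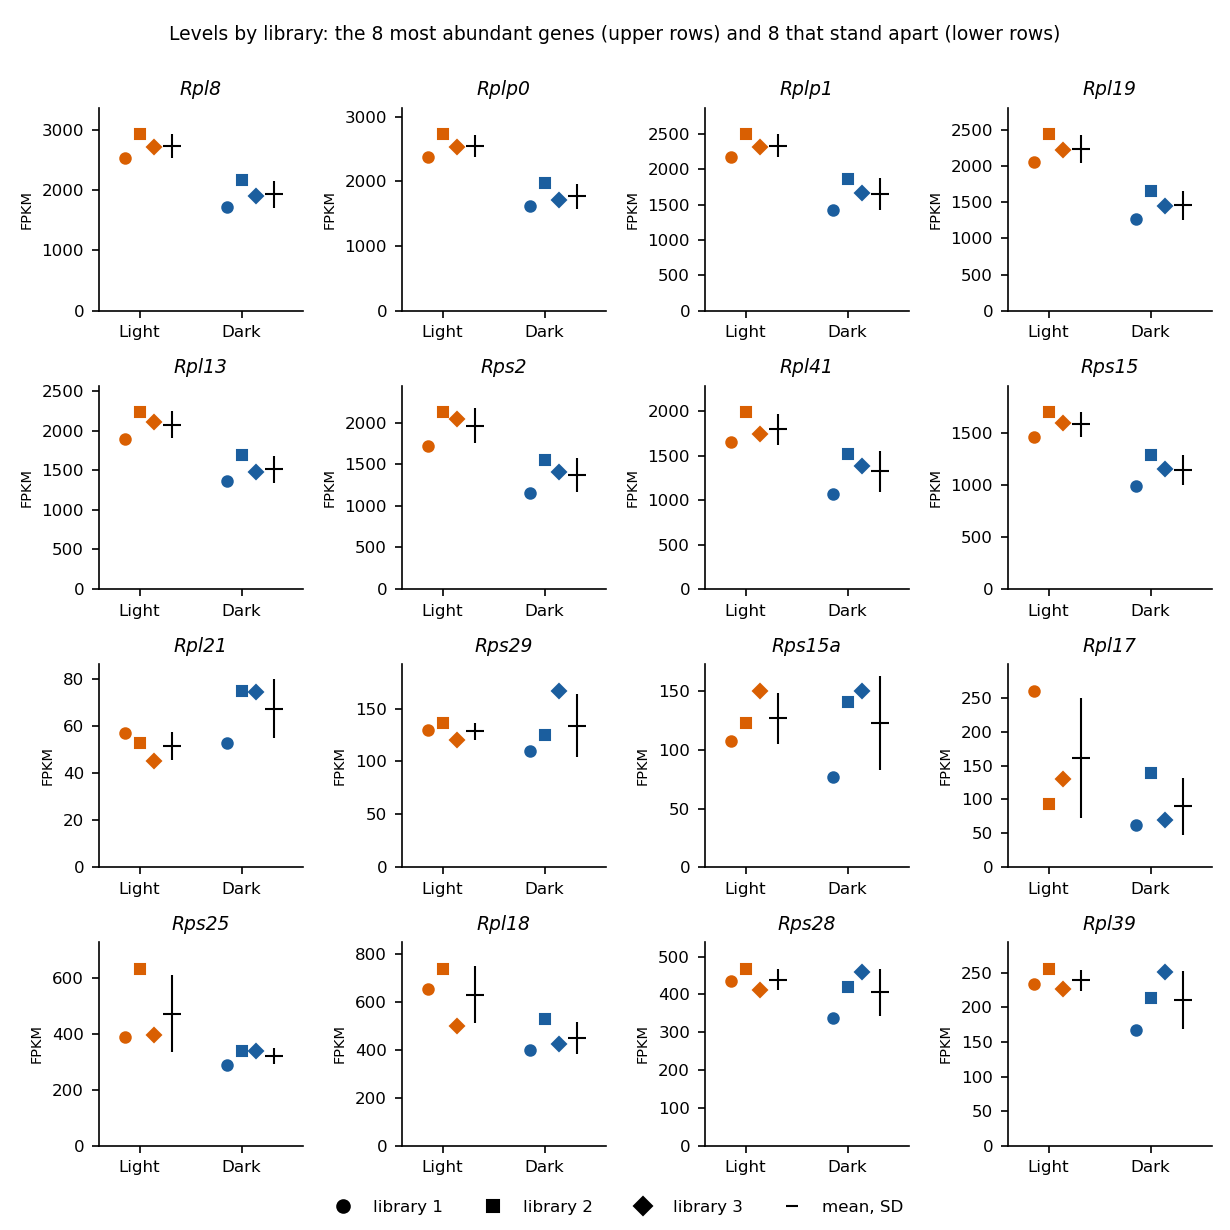
FPKM of 16 genes in each library, Light (orange) left of Dark (blue), with circles, squares and diamonds for libraries 1, 2 and 3 and black bars for the mean and SD. The upper 8 panels are the most abundant members, in which the groups do not overlap; the lower 8, picked after their values were seen, are members that were not called.

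Rpl12, Rpl26 and Rpl34 kept their calls under all 16 alternative ways of processing. Rpl34, a large subunit protein, stood at 229, 247 and 229.6 FPKM in Light and 155, 175 and 164 FPKM in Dark, a change of 0.52 ± 0.07 with the smallest adjusted p of the family (limma, 0.0037). In mm10 Rpl12 spans chromosome 2 from 32961559 to 32965345, Rpl26 chromosome 11 from 68901583 to 68906989 and Rpl34 chromosome 3 from 130726831 to 130730398. In all 54 called genes every Light value lay above every Dark value, so fits that left out libraries could not change their direction. Nor could those that changed only the filter, the pseudocount, the moderation or the replicate block. All 54 kept their direction with median centring, quantile normalization, equal FPKM sums and length and GC taken out. The calls, however, rested on few libraries. Without Light 2, 4 members were called higher, against 6.77% of all genes tested. Without Light 3, 5 were, against 6.26%, and without Dark 3, 6 were, against 6.72%. In these fits the share of members called was close to that of all genes, so the counts say nothing particular about the family, while its median change stayed at 0.37, 0.41 and 0.44. Without Light 1, 49 members were called, against 16.4% of all genes. Without Dark 1, 45 were, against 13.5%, and without Dark 2, 61 were, against 27%. Without both Dark 1 and Light 2, 16 were called higher, against 7.09% of all genes. The other fits called 36 members with no filter on low values (7.76% of all genes), 55 at a mean of at least 5 FPKM (24.1%), 53 with median centring (20.4%), 55 with a pseudocount of 0.1 (19.3%), 63 with a replicate block (29.7%) and 54 without the trend and robust options of limma (18%).

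Transcript length and level also went with the change over all genes. Among other genes, the median change was 0.21 in the 10% shortest transcripts, -0.37 in the 10% longest and 0.18 in the 10% highest by FPKM. Ribosomal protein transcripts were short, with a median of 878 bases against 3004 over all tested genes. With the dependence on length and GC taken out of every library, the median change of the family was 0.20, against 0.02 over all genes tested. There 42 members were higher (22.1% of all genes) and 1 lower (17.1%). With quantile normalization the median was 0.16, against 0.03 over all genes, with 31 members higher (18.6%) and 1 lower (15.6%). With every library scaled to an equal FPKM sum, the median over all genes was -0.14 and that of the family 0.27, with 39 members higher (11%) and 1 lower (26.3%). The 644 other genes that averaged 100 FPKM or more, a level that 75 of the 77 members reached, had a median change of 0.20, with 34.5% of them higher. The part of length, GC and level in the rise of the family was not tested beyond these values.

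**Figure D4:**
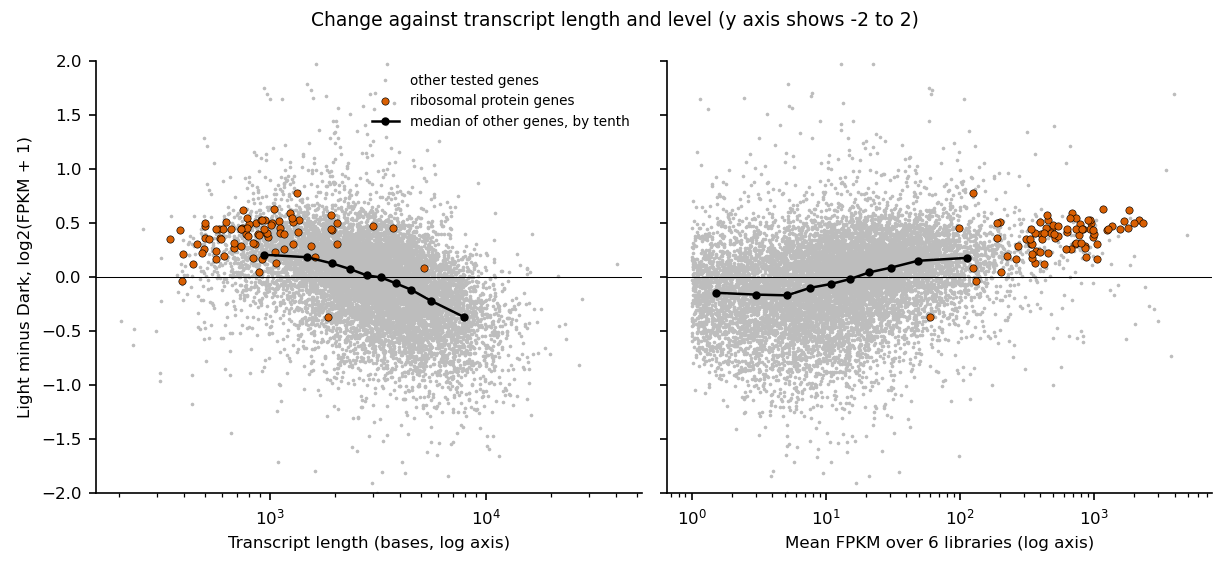
Change of each tested gene against its transcript length (left) and its mean FPKM (right), both on log axes; 16 genes beyond the plotted range of -2 to 2 are not shown, none of them a ribosomal protein gene. Grey dots are other genes, orange points the 77 ribosomal protein genes, and the black line joins the medians of other genes in 10 bins. The orange points centre on 0.42, while the line ends at 0.21 for the shortest transcripts and at 0.18 for the highest FPKM.

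Within the family few of the very shortest transcripts were called, a pattern whose length limit was also picked after the values were seen. Members only slightly longer were called: Rplp1 and Rps27l, both of 499 bases, and Rps15 of 500. Of the 7 members with the shortest transcripts (345 to 483 bases), 6 were not called: Rps27, Rps29, Rps21, Rps28, Rpl38 and Rpl36a, with Rpl36 as the exception at 0.44. In 6 of the 7, Dark 3 was the highest Dark library, which held for 19 of all 77 genes. Rps29, a zinc-binding protein of the small subunit, stood at 130, 136 and 120.2 FPKM in Light and 109.6, 125 and 167 FPKM in Dark. Its Light values lay among the Dark ones, and its change was -0.04 ± 0.15 (limma adjusted p = 0.859). Rps21 stood at 332, 427 and 343 FPKM in Light and 241, 326 and 393 FPKM in Dark, with Dark 3 inside the Light range (0.22 ± 0.19; limma adjusted p = 0.366). Rpl38, whose loss in mouse disturbs translation of Hox mRNAs and the axial skeleton, stood at 369, 412 and 363 FPKM in Light and 247, 317 and 372 FPKM in Dark (0.31; 0.134). Rps27, another zinc-binding protein, stood at 370, 405 and 351 FPKM in Light and 229, 321 and 343 FPKM in Dark, without overlap (0.35; 0.105). Rpl36a did not overlap either, at 0.22. Split by transcript length into 3 groups, 14 of the 25 shortest, 22 of the 26 middle and 18 of the 26 longest members rose. Their medians were 0.36, 0.43 and 0.45, and over all tested genes 19.2% rose.

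In a second set the libraries of a group lay far apart. Rpl17, a tunnel exit protein, had the largest change of all, 0.79 ± 0.42, but stood at 261, 92.7 and 130 FPKM in Light and 62.1, 139 and 70.0 FPKM in Dark (limma adjusted p = 0.173). Light 1 alone stood far above, and Dark 2 lay above 2 of the Light values. Rps25, which some viral mRNAs need to start translation from internal sites, stood at 389, 634 and 397 FPKM in Light and 290, 341 and 338 FPKM in Dark. The groups did not overlap, and Light 2 stood apart (0.52 ± 0.19; limma adjusted p = 0.068). Rpl18 stood at 654, 738 and 500.0 FPKM in Light and 400.2, 527 and 424 FPKM in Dark, with Light 3 within the Dark range (0.48; 0.0585). Rps15a stood at 108, 123 and 150 FPKM in Light and 77.1, 141 and 150 FPKM in Dark, overlapping throughout (0.09; 0.785). The annotated principal transcript of Rps15a is 5179 bases long and that of Rpl18 2989, far above the family's median, so their FPKM depend on which transcript the authors' length came from, which is not given in the sources used here.

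Rpl21, a large subunit protein, had the lowest change of the family and was, with Rps29, 1 of the 2 members below 0. It lies on chromosome 5 from 146832890 to 146837032 in mm10. It was also the least abundant tested member, at 57.3, 52.7 and 45.3 FPKM in Light and 53.04, 75.2 and 74.4 FPKM in Dark. Dark 1 lay within the Light range, and the change was -0.37 ± 0.15 (limma adjusted p = 0.0915). It was called lower under 5 of the alternatives: quantile normalization, rescaling to the same total, removal of the length and GC trend, and the fits without Dark 1 (10.2% of all genes lower there) and without Dark 1 and Light 2 (5.8%). Over all alternatives its change ran from -0.55 to -0.28 and its adjusted p from 0.0103 to 0.259. Ribosomal protein genes have many processed copies in the genome, and how the authors assigned reads shared with them is not given in the sources used here, so single members such as Rpl21 are uncertain.

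The remaining members that were not called had small changes. Rpl37a, Rpl37, Rps24, Rpl7a and Rpl30 stood at 0.24, 0.18, 0.18, 0.17 and 0.05, with limma adjusted p-values of 0.0741 to 0.772. Rps24 was the only one of these 5 whose groups did not overlap, at 949, 919 and 906 FPKM in Light and 782, 832 and 826 FPKM in Dark. Among all 23 members that were not called, 21 had a change above 0 and 9 had groups that did not overlap. Over all tested genes, called ones included, 5452 of 11068 had a change above 0. All 3 Light values lay above all 3 Dark values in 28.2% of all tested genes. That share was 48% in the 644 other genes that averaged 100 FPKM or more.

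Copies of ribosomal proteins used in single tissues stayed at or near 0. Rpl10l and Rpl39l, which replace the X-linked Rpl10 and Rpl39 in male germ cells, were listed at 0 in every library. Rpl3l, the form of striated muscle, was at most 0.162 FPKM in any library, against 492 to 759 FPKM for Rpl3. These 3 were below the filter and were not tested. Rps27l, a p53-inducible form of Rps27, stood at 201, 234 and 202 FPKM in Light and 147, 169 and 178 FPKM in Dark. Its rise of 0.37 ± 0.10 (limma adjusted p = 0.0276) had nearly the size of that of Rps27, which was not called. Rpl3 rose by 0.42, and of the X-linked members Rps4x and Rpl10 rose, by 0.38 and 0.31, while Rpl36a and Rpl39 were not called.

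Other genes of the ribosome and its control were taken from lists chosen by function. Of 8 ribosomal protein genes that the symbol rule does not reach, 4 rose and 0 fell by limma, with a median of 0.30. Rack1, a signalling scaffold on the small subunit, rose by 0.57 to 888 ± 64.8 FPKM in Light, against 600.3 ± 68.0 FPKM in Dark. Fau, a ubiquitin-like fusion that yields Rps30, rose by 0.43 (limma adjusted p = 0.0295). Fau was not called without Light 2, Light 3 or Dark 3 (limma adjusted p = 0.111, 0.0924 and 0.0863) or without Dark 1 and Light 2 (0.111). Its call was also lost with no filter (0.0641), quantile normalization (0.0535) and equal FPKM sums (0.0544). Of 18 other TOP mRNAs, 9 rose (50%) and 0 fell, with a median of 0.27. The elongation factor genes Eef1g and Eef2 rose by 0.54 and 0.49, and Eif3f stood at 0.47 (limma adjusted p = 0.0766). Eef2 was not called without Light 2, Light 3 or Dark 3 (limma adjusted p = 0.068, 0.0634 and 0.07). Without Dark 1 and Light 2 it was not called either (0.0638), and Eef1g was not without Light 3 (0.0515). Of 78 mitochondrial ribosomal protein genes, 42 rose (53.8%) and 1 fell, with a median of 0.31. Whether these lists differ from the cytosolic family was not tested. For comparison, 19.2% of all tested genes were higher and 16.4% lower. The share higher was 34.5% in the 644 other genes that averaged 100 FPKM or more. In the 1068 tested genes with the shortest transcripts, up to 1205 bases, it was 37.5%. Whether the lists differ from genes of like level or length was not tested either.

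Of 13 genes that control TOP mRNAs, 2 rose (15.4%) and 1 fell, with a median of -0.04, no larger a share in either direction than the 19.2% higher and 16.4% lower over all genes tested. Eif4ebp1, the gene of the translation repressor 4E-BP1, stood at 116, 142 and 125 FPKM in Light and 45.04, 57.7 and 57.3 FPKM in Dark (1.25 ± 0.12; limma adjusted p = 0.000769). Myc, a transcription factor that drives ribosomal genes, stood at 53.3, 48.5 and 49.0 FPKM in Light and 31.6, 31.2 and 32.1 FPKM in Dark (0.65 ± 0.06; limma adjusted p = 0.000769). Both kept their calls under all 16 alternatives. Rps6kb1, which encodes an S6 kinase, fell by 0.64 (limma adjusted p = 0.0354). With length and GC taken out it stood at -0.06 (0.509), and without Dark 1 and Light 2 at -0.38 (0.118). It was not called without Light 1, Light 2, Light 3, Dark 1 or Dark 3 alone (limma adjusted p = 0.0506 to 0.123). Larp1 and Mtor stood at -0.12 and -0.08 and were not called. Nor were Rps6kb2, which encodes another S6 kinase, at -0.01 (limma adjusted p = 0.944), and Eif4ebp2, at -0.04 (0.628). Of 13 chaperones and import factors of ribosomal proteins, 3 rose (23.1%) and 1 fell, with a median of 0.05, which is near the 19.2% higher over all genes. Pdcd2, the chaperone of Rps2, rose by 1.10 and Pdcd2l by 0.50. Neither was called without Light 2 (limma adjusted p = 0.0562 for Pdcd2 and 0.0704 for Pdcd2l), without Light 3 (0.0576 and 0.0692) or without Dark 3 (0.0526 and 0.0532). Ipo7, an import receptor, stood at -0.57 (0.16), with Dark 1 far above the other Dark libraries.

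Of 5 genes of the p53 response to failed ribosome assembly, 3 rose and 1 fell, against 19.2% higher and 16.4% lower over all genes tested. Cdkn1a, the cell cycle inhibitor that p53 induces, rose by 2.27, Nop53, a nucleolar assembly factor, by 0.46, and Trp53 itself by 0.27 (limma adjusted p = 0.039). Mdm4, a p53 inhibitor, fell by 0.85 (limma adjusted p = 0.0439), and its partner Mdm2 stood at -0.21 (0.318). The call of Mdm4 was lost under 9 of the 16 alternatives. Its change was -0.38 (limma adjusted p = 0.0588) with length and GC taken out, -0.58 (0.0651) without Dark 1 and -0.44 (0.128) without Dark 1 and Light 2. Without Light 1, Light 2, Light 3 or Dark 3 its adjusted p was 0.0518, 0.146, 0.111 and 0.114. Nop53 was not called without Light 2 (0.0517) or Light 3 (0.0523), while Cdkn1a kept its call throughout.

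**Figure D5:**
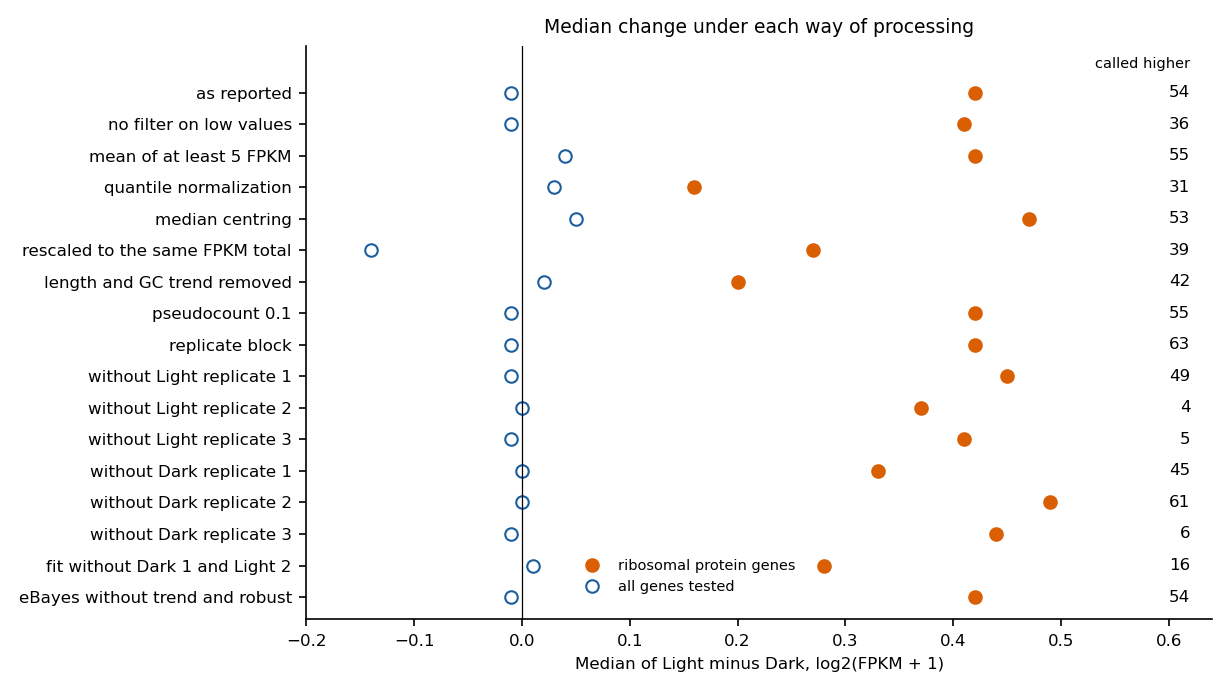
Median change of the ribosomal protein genes (orange) and of all genes tested (open blue) under the values as reported and each of the 16 alternatives, with the number of ribosomal protein genes called higher at the right. The family's median lies between 0.16 and 0.49 and above that of all genes in every row, while the number called runs from 4 to 63.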

How the data were processed

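The 6 samples (3 Light, 3 Dark) were sequenced as mRNA libraries from TRIzol-extracted RNA, per the labels' protocols. HISAT2 and the build mm10 are named in the submitters' processing notes. For each gene and sample the authors deposited an FPKM value, and per-sample files and series table held the same values (0 differences). Annotation, strand setting and the program behind FPKM were not given in the sources used here. Low values of 435 genes showed no whole-read steps (the commonest ratio was shared by at most 1.61%), so reads were not recovered, and precision rests on 3 libraries per group.

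Where the mean reached 1 FPKM, log2(FPKM + 1) was compared with limma 3.58.1 under R 4.3.3 (trended, robust moderation; 2-sided) and called at a Benjamini-Hochberg adjusted p under 0.05. The procedure was tested on simulated data. Spans, and lengths and GC of the longest principal transcript, come from GENCODE M21 (mm10), in which all 80 members were found. The counts include 1 member that is not reported here by name. Start sequences come from RefSeq. The members, lists and naming rule (the most abundant, the largest and smallest changes, all not called, and roles) were chosen with earlier results of these data known. Rpl9, Rpl34, Rpl36, Rps12, Rps27rt, Cd68, Larp1, Mtor, Rps6kb2, Eif4ebp2, Mdm2 and Trp53 fall outside that rule and were named after their values were seen. The same holds for the genes picked for their start sequence. Alternatives concerned the filter, scaling, length and GC, the pseudocount, moderation, a replicate block, and libraries left out.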

Additional observations from a re-analysis of the deposited data

How the results depend on the processing

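The 54 called ribosomal protein genes kept their direction under the alternatives that rescaled the values, the only ones that could change it. The number of calls did not hold. Without 1 library at a time, 4 to 61 members were called higher and 0 to 1 lower, with medians of 0.33 to 0.49; for the large subunit 4 to 36 were higher and 0 to 1 lower, and for the small subunit 0 to 25 were higher. Over all genes these fits called 693 to 2990 higher and 533 to 2884 lower, and the share of summed FPKM differed by 1.83 to 2.68 percentage points, against 2.33 with all libraries. Leaving out Dark 1 and Light 2 together gave 16 members higher (10 large, 6 small) and 1 lower (large), a median of 0.28, and 785 genes higher and 642 lower. Quantile normalization gave 31 higher (17 large, 14 small), 1 lower (large) and a median of 0.16. Scaling to an equal FPKM sum gave 1 lower (large), a median of 0.27, and 1215 genes higher and 2913 lower, against 2128 and 1810 as reported. Taking out the length and GC trend gave 1 lower (large) and a median of 0.20. With no filter 36 members were higher, 14 of them of the small subunit, and 1109 genes were lower. The 1 lower gene was Rpl21 each time. The cause of these shifts was not tested beyond the change in samples, genes or scale that each alternative makes.

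The replicate block called 63 members, and 3287 genes higher and 3403 lower. Deviations of same-numbered libraries correlated at 0.69 and 0.64 for numbers 1 and 2 and at -0.09 for number 3. Across numbers, Light 2 with Dark 1 gave -0.67 and Light 1 with Dark 2 gave -0.68. Light 3 stood near 0 with Dark 1 (-0.04) and Dark 2 (0.08) as well. The main fit did not take the numbers as pairs, and whether same-numbered libraries share a batch was not tested.

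Single genes that changed direction were among those not called. With quantile normalization Rpl23 stood at -0.13, Rpl23a at -0.12, Rpl30 at -0.15, Rpl36a at -0.03, Rpl37 at -0.07, Rpl37a at -0.02, Rpl7a at -0.02, Rps15a at -0.06, Rps21 at -0.03, Rps24 at -0.08 and Rps28 at -0.12. Scaled to an equal sum, Rpl23 stood at -0.01, Rpl30 at -0.10, Rps15a at -0.05 and Rps28 at -0.02. With length and GC taken out, Rpl23a stood at -0.01, Rpl30 at -0.22, Rpl7a at -0.08 and Rps28 at -0.13. Without Dark 1 and Light 2, Rpl30 stood at -0.07, Rpl39 at -0.0043, Rps15a at -0.19, Rps21 at -0.09 and Rps28 at -0.05. Without 1 library at a time, Rpl30 ran from -0.05 (without Dark 1) to 0.18 (without Dark 2), and Rps28 from -0.0048 (without Dark 1) to 0.22 (without Dark 3). Rps15a stood at -0.21 without Dark 1. Rps15a stood at -0.03 without Light 3. Rps29, at -0.04 as reported, stood at 0.02 with median centring, 0.01 without Light 3, 0.13 without Dark 3 and -0.17 without Dark 1. Depth is unknown, so no limit by counting error can be given.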

Other observations

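The table also names 7 ribosomal protein copies with -ps symbols, of which 4 had a mean of at least 1 FPKM. Rps12-ps3, annotated as protein-coding in GENCODE, stood at 771, 849 and 609 FPKM in Light and 489.5, 697 and 609.7 FPKM in Dark, which is above its parent gene Rps12 in 5 of the 6 libraries. Rps12 itself stood at 518, 569 and 658 FPKM in Light and 476, 478 and 402 FPKM in Dark, a change of 0.36 (limma adjusted p = 0.0449). Where the copy was lowest within Light (Light 3), the parent was highest. Rpl9-ps6 rose by 0.55 (limma adjusted p = 0.0244), and its parent Rpl9 by 0.46. Rpl10-ps3 stood at 7.57, 40.0 and 8.64 FPKM in Light and 6.40, 7.49 and 6.90 FPKM in Dark, with Light 2 alone apart, while Rpl10 held 1139 to 1205 FPKM in Light. Rps27rt, another copy, stood at 50.8 to 64.7 FPKM in Light and 50.7 to 77.3 FPKM in Dark. Copies so alike in sequence can share reads with their parents, and how the authors assigned such reads is not given in the sources used here, so single values of either are uncertain.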
